A study of Mus musculus with 12 samples.

Results

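Plasmacytoid dendritic cells were followed here among the immune cells of MC38 tumors, as 111 of the 128912 cells that passed the limits on cell quality, or 0.0861% (95% Clopper-Pearson interval 0.0708 to 0.104%). A cell was taken as a plasmacytoid dendritic cell when it held at least 2 unique molecular identifiers (UMIs, each standing for 1 captured RNA molecule) of Siglech and at least 1 of Tcf4, and 0 UMIs of the macrophage genes Adgre1 and C1qa, the T cell receptor complex genes Cd3d, Cd3e and Cd3g and the B cell gene Ms4a1. Barcodes counted as cells with over 200 but under 5000 detected genes and no more than 10% mitochondrial UMIs, which left 91.7% of 140639 barcodes, and the cell numbers in the study's methods add up to a total between these. Siglech (GRCm38 chromosome 7, 55768178 to 55778925) encodes the surface lectin Siglec-H, and Tcf4 encodes E2-2, the transcription factor that sets and maintains the fate of these cells.

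Plasmacytoid dendritic cells arise in bone marrow, circulate, and resemble antibody-secreting cells in shape, with an extensive secretory apparatus. They sense nucleic acids in endosomes through TLR7 and TLR9 and, once triggered, release large amounts of type I interferon. In tumors they are known as rare cells that are often poor producers of interferon and that can present antigen or restrain T cells.

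The data are single-cell RNA-Seq libraries of CD45+ cells taken on day 17 from subcutaneous MC38 tumors, a colon carcinoma line, grown in C57BL/6 mice. The mice, without engineered alleles in the labels, received daily subcutaneous PF-06821497, an inhibitor of the histone methyltransferase EZH2 (EZH2i), at 100 mg/kg or vehicle, from day 1 (16 days of treatment) or from day 10 (7 days). The labels list 3 samples in each of the 4 groups, EZH2i or vehicle for 7 or 16 days. The matrix names its 12 libraries by number only, and no source used here names the mouse or treatment of a number. The study's methods give a cell total for each group, and groups were not inferred by matching library sizes to these totals. The libraries were therefore treated as 1 pooled sample, treated and vehicle mice were not compared, and no test between groups was run. All intervals below are 95% intervals that cover counting error only, and values from single libraries are given one by one.

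Libraries held between 3330 and 37413 cells after the limits, with a median of 2291 to 15081 UMIs per cell. Transcripts of Y-linked genes were present at 128 to 209 CPM (counts-per-million, which put cell types with different UMI totals on 1 scale) in libraries 1 to 6 and absent in libraries 7 to 12, although the study's methods name female mice. The plasmacytoid dendritic cells made up 0.0833% of the first 6 libraries (80 cells) and 0.0941% of the other 6 (31 cells). Library 4 stood apart by its heat shock transcripts, with 2975 CPM of Hspa1a and Hspa1b together against 83.3 to 459.6 CPM in the others, and without it 99 of 117614 cells met the rule (0.0842%). No cell barcode was shared among the 111 cells, while 5 of them (4.50%) had a barcode that also occurred in a kept cell of another library, as did 2.93% of all 128912 cells.

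Plasmacytoid dendritic cells were found in each of the 12 libraries, at 8, 18, 1, 12, 17 and 24 cells in libraries 1 to 6 and 17, 1, 7, 4, 1 and 1 cells in libraries 7 to 12. The lowest share of cells was 0.0139%, in library 3 (0.000351 to 0.0773%) and the highest 0.211%, in library 7 (0.123 to 0.338%), around a median of 0.0848%. The intervals of libraries 3 and 7 did not overlap. Siglech and Tcf4 alone were met by 250 cells (0.194%), and the genes that exclude other cell types removed 139 of them.

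The exclusion fell unevenly on the libraries. It left 72.0% of the cells that met Siglech and Tcf4 in library 2 and 68.0% in library 7, but 11.1% in library 8, 14.3% in library 12 and 16.7% in library 11, which were the libraries with the most UMIs per cell (medians of 14555, 15081 and 12378). Library 6, with the fewest UMIs per cell (median 2291), kept 33.8%. C1qa, a complement gene of macrophages, was present in 74.5 to 89.7% of all cells of a library. It was detected in 124 of the 139 removed cells, 81 of which carried none of the other excluding genes, and 51 held only 1 or 2 C1qa UMIs and no other excluding gene. The part of depth and of free C1qa RNA in the shares per library was not tested.

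**Figure D1:**
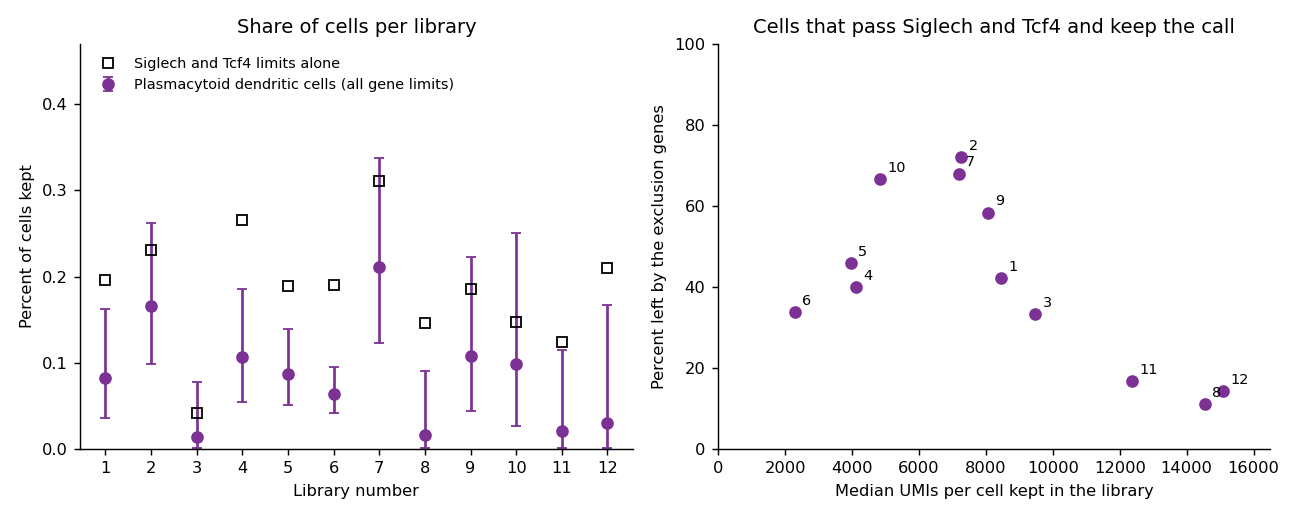
The left panel plots the percent of cells kept that were plasmacytoid dendritic cells in each of the 12 libraries (circles, with 95% Clopper-Pearson intervals) and the percent that met the Siglech and Tcf4 limits alone (squares). The right panel plots the percent of the latter left by the excluding genes against the median UMIs per cell of the library, from 11.1% in library 8 to 72.0% in library 2, and libraries 8, 11 and 12 sit at the lower right.

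The cells held many known markers of plasmacytoid dendritic cells besides the 2 genes that selected them. The marker list was chosen with earlier results of these data known, so these counts are descriptions. Siglech ranged from 2 to 27 UMIs per cell (median 5, 15 cells at 2) and Tcf4 from 1 to 28 (median 4, 13 cells at 1). Of 18 further markers of the lineage, each cell held between 3 and 14, with a median of 10. Cells of the other types held few: between 0 and 4 (median 1) in type 1 conventional dendritic cells, in mature dendritic cells and in B cells alike, and a median of 2 (0 to 9) in 67603 cells with macrophage genes.

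Cells just outside the limits were mixed. The 32 cells with 1 Siglech UMI that met the other limits held a median of 4 further markers and 156 CPM of Ccr9, against 1462 CPM in the 111 cells, whereas the 10 cells with enough Siglech but no Tcf4 held a median of 8 and 1605 CPM. The 15 selected cells with exactly 2 Siglech UMIs had a median of 7 and 1148 CPM of Ccr9, and the 13 with 1 Tcf4 UMI a median of 7 and 638 CPM. The 51 cells removed for 1 or 2 C1qa UMIs alone had a median of 10 further markers, with 1303 CPM of Ccr9 and 71.6 CPM of C1qb. The 2 limits on Siglech and Tcf4 thus left out some cells with many plasmacytoid markers, and the excluding genes left out more of them.

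**Figure D2:**
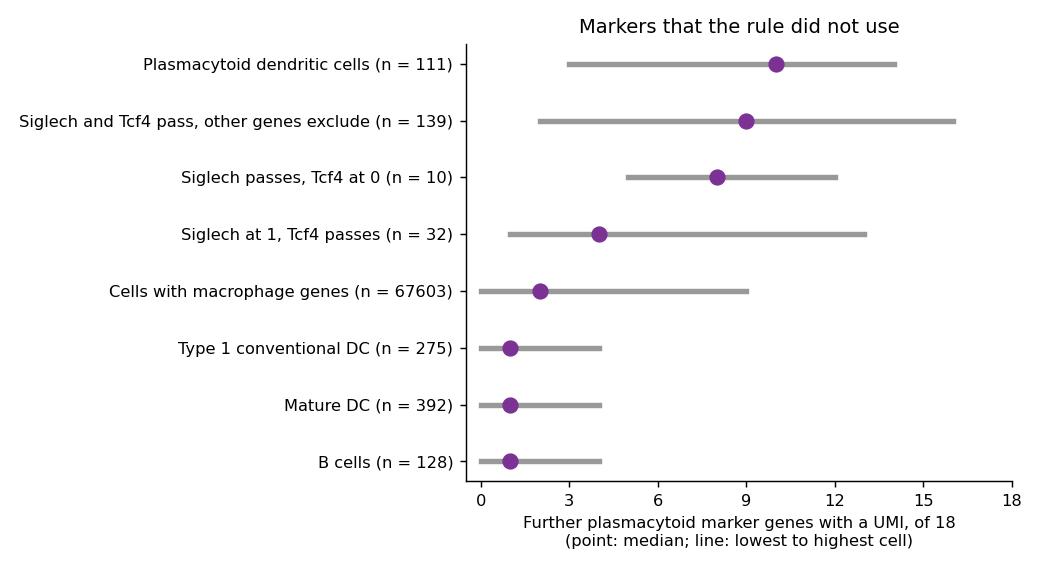
The plot gives the number of 18 further plasmacytoid marker genes with at least 1 UMI in a cell (point, median; line, lowest to highest cell) for the selected cells, for cells just outside the limits and for 4 other cell types. The 111 cells had a median of 10, the 139 cells removed by excluding genes a median of 9, and type 1 conventional, mature dendritic and B cells a median of 1.

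The plasmacytoid dendritic cells held 679 to 11625 UMIs per cell (median 3297), 466 to 3310 genes (median 1437) and a median of 5.21% mitochondrial UMIs. Their median per library ran from 1224 UMIs in library 6 (24 cells) to 11419 UMIs in library 12 (1 cell). Together they held 369975 UMIs. In that sum 3 UMIs correspond to 8.11 CPM, the level that a gene with 0 UMIs may still have. They were compared with 275 type 1 conventional dendritic cells (Xcr1 and Clec9a, median 5757 UMIs), the cross-presenting dendritic cells that also depend on IRF8, with 392 mature dendritic cells (Ccr7 and Fscn1, median 4362.5 UMIs) and with 128 B cells (Ms4a1 and Cd79a, median 1365 UMIs). All of these had 0 UMIs of Siglech and of the excluding genes, except for Ms4a1 in the B cells.

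A gene counted as measured when its mean CPM over both types was at least 20, and as higher or lower when the summed levels differed at least 4-fold. Against type 1 conventional dendritic cells 478 of 5366 measured genes were higher (8.91%) and 241 were lower (4.49%). The median log2 ratio of all measured genes was 0.27, and with ratios centred on it 393 genes were higher and 305 lower. The 2 types were selected by their RNA, so the differences below are descriptions. List counts against type 1 conventional dendritic cells are to be read beside these shares of 8.91% higher and 4.49% lower.

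Surface and enzyme markers of the lineage set these cells apart. All 17 measured genes of the 18 further markers were at least 4-fold higher than in type 1 conventional dendritic cells, with a median log2 ratio of 7.49. Markers were listed because they are known in this cell type, and with earlier results of these data known. Their count therefore describes the label and is no independent check of it. The exception to measurement was Tlr9, with 2 UMIs.

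Ccr9 (GRCm38 chromosome 9, 123678439 to 123784330), the chemokine receptor that guides these cells to the gut and thymus, reached 1462 CPM (1342 to 1591) against 12.9 CPM in type 1 conventional dendritic cells, a 114-fold difference (76.7 to 176). It was found in 87.4% of the cells (79.7 to 92.9%), against 8.0% of type 1 conventional dendritic cells and 0.589% of cells with macrophage genes, which should lack it. With each cell thinned to 1000 UMIs, leaving out 6 shallower plasmacytoid dendritic cells, the expected shares were 67.9% and 1.52%. Ccr9 was therefore widespread among the selected cells and rare in the other types.

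Bst2 (GRCm38 chromosome 8, 71534255 to 71537456), the tetherin recognized by the antibody PDCA-1, stood at 3500.2 CPM against 372 CPM, a 9.42-fold difference (8.6 to 10.3). It was present in 98.2% of the cells but also in 95.8% of cells with macrophage genes, and over all other cells it averaged 1146 CPM. Bst2, which interferon induces in many cell types, was thus found in most cells of both these groups, and its level over all other cells was 3.05-fold lower than in plasmacytoid dendritic cells.

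Ly6d (GRCm38 chromosome 15, 74762056 to 74763620), a surface protein of lymphoid-primed precursors, had 3489 CPM against 1 UMI in type 1 conventional dendritic cells, a ratio of 7053 whose interval ran from 1264 to 278796. B cells held 1453 CPM, so these 2 types were within 4-fold for this gene. Klk1 (GRCm38 chromosome 7, 44225360 to 44229618), a tissue kallikrein, had 1738 CPM against 0 UMIs, at least 1171-fold higher, and Cox6a2, a muscle-type subunit of cytochrome c oxidase, had 822 CPM against 0 UMIs, at least 554-fold higher. Klk1 has close paralogs whose reads may be split between them, so its level and that of Klk1b27 (335 CPM) are uncertain. Klk1 was found in 69.4% and Cox6a2 in 64% of the cells.

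Further lineage genes followed the same pattern at lower levels. Pacsin1, an endocytic adaptor used in interferon production, stood at 224 against 14.3 CPM, Cd300c, an activating surface receptor, at 216 CPM against 2 UMIs (ratio 219, 58.6 to 1836), and Cd209d, a C-type lectin, at 162 CPM against 0 UMIs. Upb1, an enzyme of pyrimidine breakdown, reached 173 CPM in 35.1% of the cells. Klra17, an NK-type lectin receptor, was found in 23.4% of the cells at 105 CPM.

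**Figure D3:**
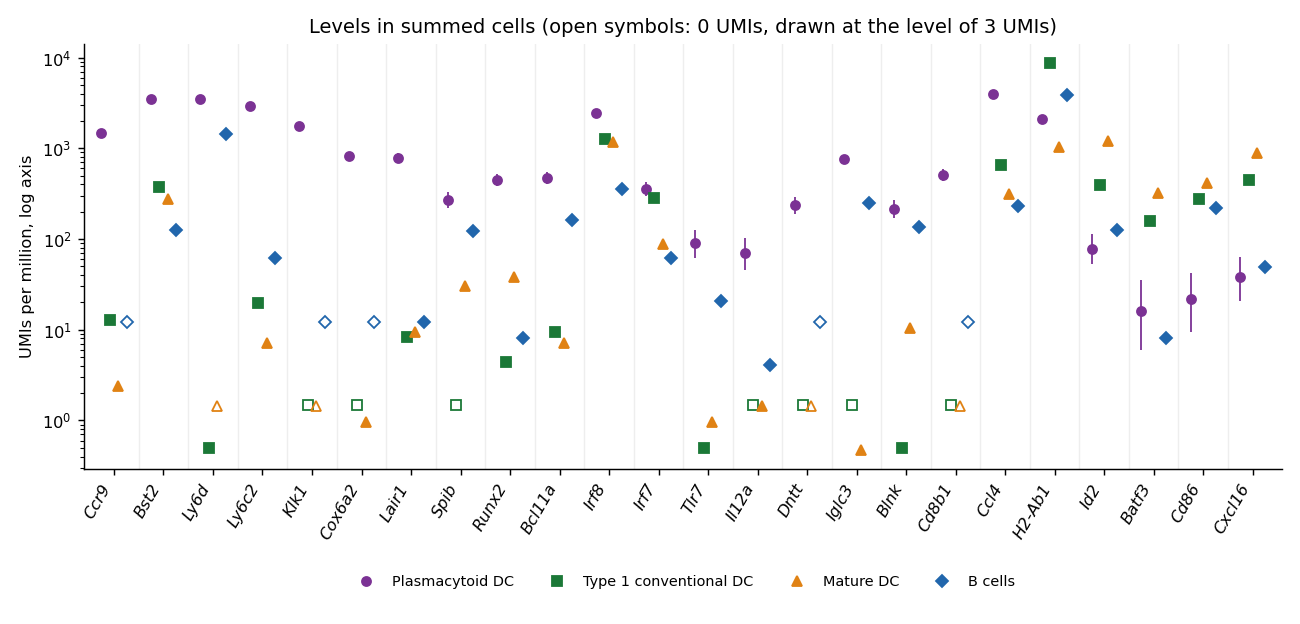
The plot gives summed levels in counts-per-million (CPM) on a log axis for 24 genes in plasmacytoid, type 1 conventional and mature dendritic cells and in B cells. Vertical lines are 95% Poisson intervals for the plasmacytoid dendritic cells and open symbols mark 0 UMIs, drawn at the level of 3 UMIs. Ccr9 stood at 1462 CPM in plasmacytoid and 12.9 CPM in type 1 conventional dendritic cells, while H2-Ab1, Id2, Batf3, Cd86 and Cxcl16 at the right were lower in the former.

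Transcription factors of the plasmacytoid program were present, and a few factors of conventional dendritic cells were lower. Of 14 measured factors of the plasmacytoid list, leaving out Tcf4, 7 were at least 4-fold higher than in type 1 conventional dendritic cells, 7 were within 4-fold and 0 were lower (median log2 ratio 1.87). Of 9 measured factors of the conventional list, 1 was higher and 3 were lower (median -0.96).

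Among the higher factors, Spib, an ETS factor shared with B cells, had 268 CPM against 0 UMIs in type 1 conventional dendritic cells and 123 CPM in B cells. Runx2, which is required for these cells to leave the marrow, had 449 against 4.45 CPM, a 101-fold difference (51.8 to 224). Bcl11a, a factor that acts with E2-2, had 468 against 9.4 CPM (49.7-fold, 30.9 to 84.6) and 164 CPM in B cells. These 3 genes were found in 53.2, 57.7 and 65.8% of the cells.

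Zeb2, a repressor that favours the plasmacytoid fate, stood at 305 against 8.41 CPM (36.3-fold, 21.7 to 64.5), although 82.5% of cells with macrophage genes also held it. Ets1, an ETS factor of lymphocytes, stood at 170.3 CPM against 3 UMIs (ratio 115, 37.5 to 571). Xbp1, the factor of the secretory program, stood at 503 against 91 CPM (5.52-fold, 4.48 to 6.81). Ikzf1, the gene of Ikaros, was 4.18-fold higher (3.07 to 5.67) and was under 4-fold once ratios were centred or without library 1 or 4 (log2 ratios of 1.99 and 1.81).

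The interferon regulatory factors split. Irf8, which both lineages need, was high in both, at 2441 against 1253 CPM (1.95-fold, 1.8 to 2.1), and Irf7, the amplifier of type I interferon, was within 4-fold at 357 against 286 CPM (1.25-fold, 1.02 to 1.51). Irf4 was higher at 78.4 against 3.96 CPM and was the higher factor of the conventional list. Irf5, which acts downstream of TLRs, was 5.56-fold lower, at 43.2 against 240.4 CPM.

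Id2, the inhibitor of E proteins that opposes E2-2, stood at 78.4 CPM against 395 CPM, 5.04-fold lower, and in 13.5% against 66.2% of the cells. Its log2 ratio was -2.33, and -1.996 without library 2, just under 4-fold lower. Batf3, on which type 1 conventional dendritic cells depend, stood at 16.2 against 158 CPM, 9.73-fold lower. Zfp366, a repressor of conventional dendritic cells, had 1 UMI against 51.9 CPM (ratio 0.052, 0.00131 to 0.296). Zbtb46 had 2 UMIs and was too low in both to be measured.

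The 20 genes with the highest ratio over type 1 conventional dendritic cells mixed known lineage genes with genes of lymphocytes. These 20 were taken among genes with at least 100 CPM and a higher level in all 5 libraries with 10 or more cells of both types. They included, from the top, Ly6d, Klk1, Cox6a2, Iglc2, Iglc3, Mctp2, Blnk, Cd7, Igkc, Adam11, Atp1b1, Upb1, Cd8b1, Gm21762, Paqr5, Cdh5, Smim5, Klk1b27 and Cd300c. Atp1b1, a subunit of the sodium pump, had 524 CPM against 0 UMIs, Mctp2, a calcium-binding membrane protein, 243 CPM against 1 UMI, and Cdh5, the cadherin of endothelial junctions, 135 CPM against 1 UMI. Gm21762, an unnamed gene model, had 511 CPM in 60.4% of the cells and 0.449 CPM in all other cells. Adam11, a member of the ADAM family, was found in 38.7% of the cells.

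Promoter sequence was looked at for these 20 genes because E2-2 binds E-box motifs. RefSeq promoter entries of the GRCm38.p6 build, from 250 bases before to 50 bases after the start of a gene, matched 8 of the 20. The E-box word CACCTG was searched on both strands (as CACCTG or CAGGTG), and it occurred in 6 of the 8 (75.0%) and in 5413 of 27025 promoters of the same length (20.03%). It was absent from the promoters of Atp1b1 and Upb1, which are also lineage markers. Klk1 and Klk1b27, which are paralogs, are both among the 6. Printed 5′ to 3′ on the strand of the gene, with the word in capitals, are 3 promoters that hold it, chosen because Klk1 and Cd300c are lineage markers and Blnk is shared with B cells. The RefSeq window of Cd300c lies inside the GENCODE span of the gene (114956116 to 114969157) and not at its 5′ end, and the same holds for Upb1. Printed below are Klk1 (chr7:44225110-44225409, plus strand), Blnk (chr19:40994172-40994471, minus strand) and Cd300c (chr11:114960458-114960757, minus strand).
Klk1: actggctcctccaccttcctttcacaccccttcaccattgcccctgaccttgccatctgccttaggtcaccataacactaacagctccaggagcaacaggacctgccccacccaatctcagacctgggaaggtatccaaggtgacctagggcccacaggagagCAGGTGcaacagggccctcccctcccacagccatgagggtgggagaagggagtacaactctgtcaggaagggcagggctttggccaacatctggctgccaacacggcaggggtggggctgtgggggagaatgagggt
Blnk: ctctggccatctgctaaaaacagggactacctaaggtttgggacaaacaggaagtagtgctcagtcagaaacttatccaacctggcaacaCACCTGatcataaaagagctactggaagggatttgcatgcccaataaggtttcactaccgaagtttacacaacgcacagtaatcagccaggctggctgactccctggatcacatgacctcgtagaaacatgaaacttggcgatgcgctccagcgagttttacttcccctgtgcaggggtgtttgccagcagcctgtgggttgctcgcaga
Cd300c: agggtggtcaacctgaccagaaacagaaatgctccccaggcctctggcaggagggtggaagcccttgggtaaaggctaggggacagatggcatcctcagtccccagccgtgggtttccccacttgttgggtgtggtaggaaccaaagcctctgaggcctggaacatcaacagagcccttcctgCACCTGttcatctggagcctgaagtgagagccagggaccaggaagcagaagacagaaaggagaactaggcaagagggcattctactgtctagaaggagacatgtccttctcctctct
A match is a description of the letters and no measurement of binding.

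At the low end, the 10 genes with the lowest ratio and at least 100 CPM in type 1 conventional dendritic cells were Cxcl9, Egr3, Ccl17, Cldn1, Hist1h2ae, Tlr3, Rap2a, Pclaf, Bcl2a1a and Stmn1. Egr3, an early response factor, had 2 UMIs against 350.3 CPM (ratio 0.0154, 0.00187 to 0.056). Cldn1, a tight junction protein, had 1 UMI against 133 CPM (ratio 0.0204, 0.000514 to 0.115). Pclaf and Stmn1, genes of dividing cells, had 0 and 4 UMIs.

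Most measured genes of the surface receptor list were higher than in type 1 conventional dendritic cells. Of its 24 measured genes, 19 were at least 4-fold higher, 1 was lower and 4 were within 4-fold (median log2 ratio 3.72). Over all measured genes 8.91% were higher and 4.49% were lower. The list shares 6 genes with the marker list. It was chosen with earlier results of these data known, so its count is a description. Against all other cells, 11 of its 25 measured genes were higher, 2 were lower and 12 were within 4-fold. Of all genes measured in that comparison 6.12% were higher and 7.34% were lower. Lair1, an inhibitory collagen receptor, stood at 784 against 8.41 CPM (93.2-fold, 57.2 to 162). Lag3, the inhibitory MHC class II receptor that marks exhausted T cells and plasmacytoid dendritic cells, stood at 224 against 4.95 CPM (45.3-fold, 23.5 to 98) and was found in 44.1% of the cells.

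Ly6c2 reached 2911 CPM against 19.8 CPM (147-fold, 107 to 207) in 96.4% of the cells, and Ly6a, the gene of Sca-1, 2341 against 342 CPM. Ly6c2 is also a monocyte marker. Of 7 measured monocyte markers 3 were higher than in type 1 conventional dendritic cells and 0 were lower, against 8.91 and 4.49% of all genes. The other higher genes were Plac8, at 4708 against 1134 CPM and under 4-fold once ratios were centred, and Fn1, the gene of fibronectin, at 116 against 19.8 CPM. Without library 4 the log2 ratio of Fn1 was 0.34 against 2.55 with it, and without library 9 that of Plac8 was 1.98, so both calls ended. Ccr2 and Lyz2 were within 4-fold, at 64.9 and 176 CPM.

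The adaptors that couple Siglec-H and Fc receptors to Syk were higher than in type 1 conventional dendritic cells. Tyrobp, the gene of DAP12 with which Siglec-H pairs, stood at 3581 against 357 CPM (10-fold, 9.16 to 11), and Fcer1g, the common gamma chain, at 1143 against 120.2 CPM (9.51-fold, 8.1 to 11.2). All other cells held 2119 and 2951 CPM of them, within 4-fold, and cells with macrophage genes held them in 99.4 and 99.7%, against 99.1 and 84.7% of the plasmacytoid dendritic cells. Clec10a, a galactose-type lectin, was 16.9-fold higher, Cd300a, an inhibitory receptor, 10.5-fold and Ptprs, a phosphatase receptor of these cells, 9.3-fold higher. Havcr2, the gene of TIM-3, was the gene that was lower, at 16.2 against 234 CPM. Pdcd1lg2 had 0 UMIs, and Cd274, the gene of PD-L1, stood at 35.1 against 61.8 CPM.

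Coreceptor genes of T cells were found in a part of the cells, which were selected for 0 UMIs of the Cd3 genes. Cd8b1 had 511 CPM in 40.5% of the cells, Cd8a 216 CPM in 32.4% and Cd4 135 CPM in 22.5%, while cells with macrophage genes held them in 1.67, 1.67 and 2.88%. Cd8a and Cd8b1 occurred together in 21 cells, of 36 and 45 cells with either gene, and Cd8b1 and Cd4 together in 15. The receptor genes Trac, Trbc1 and Trbc2 had 5, 2 and 1 UMIs and Lck 0, and the Cd3 genes were at 0 by selection. Of the 250 cells that met Siglech and Tcf4, 24 held a Cd3 UMI and were removed. The low counts of T cell receptor genes may thus follow from the selection. Cd7, a lymphoid surface protein, was found in 31.5% of the cells at 189 CPM.

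A set of genes of early lymphoid cells was carried as well. Of 8 measured genes of the lymphoid list, 6 were higher than in type 1 conventional dendritic cells and 1 was lower (median log2 ratio 5.51), and 7 of the 20 listed genes had 0 UMIs. Dntt, the gene of the terminal transferase that adds bases to rearranging receptor genes, had 238 CPM against 0 UMIs in type 1 conventional dendritic cells, mature dendritic cells and B cells, and was found in 42.3% of the cells (33 to 52.1%) against 0.0148% of cells with macrophage genes. Iglc3, a constant region of the lambda light chain, had 757 CPM against 0 UMIs, and Ighm, the mu heavy chain, 841 against 51.9 CPM (16.2-fold, 12.9 to 20.4).

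Dntt was found in 47 cells, Iglc3 in 65 and both in 33, whereas 32 held neither. Igkc had 549 CPM, against 6518 CPM in B cells, where Iglc2 and Iglc3 stood at 589 and 249.6 CPM. Iglc2 and Iglc3 are near-identical copies, so the split between them is uncertain. Blnk, the adaptor of the B cell receptor, had 214 CPM against 1 UMI in type 1 conventional dendritic cells, and Il7r, the interleukin-7 receptor, 316 against 2.47 CPM (128-fold, 53.2 to 401). The ratio of Il7r holds for that type only. The 9 T cell markers outside the rule, Il7r among them, summed to 383 CPM in mature dendritic cells, where Cd4 was found in 0% and Cd8a in 1.28% of cells. Of the 4 measured there, 3 were higher in plasmacytoid dendritic cells and 1 was within 4-fold. Genes that define B cells, Cd79a, Pax5, Ebf1, Cd22 and Bank1, had 0 UMIs in all 111 cells, as did Rag1 and Rag2. Of 11 B cell markers outside the rule, 8 were at 0 and the summed level was 886.5 CPM, against 8306 CPM in B cells.

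The endosomal sensing pathway was present in part. Of 13 measured genes of nucleic acid sensing, 3 were higher, 2 were lower and 8 were within 4-fold of type 1 conventional dendritic cells (median log2 ratio 0.37). Over all measured genes 8.91% were higher and 4.49% were lower, with a median of 0.27. Tlr7 had 33 UMIs, 89.2 CPM (61.4 to 125), against 1 UMI in type 1 conventional dendritic cells (ratio 180.3, 30.2 to 7334). It was found in 27% of the cells (19 to 36.3%), a share near that of cells with macrophage genes, which also use TLR7 (24.9%, at a median of 7051 UMIs), and in 9.03% against 4.09% after thinning to 1000 UMIs. Tlr9, the DNA sensor, had 2 UMIs and Tlr8 had 0, so that Tlr9 was not measurable at this depth.

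Partners of the sensors were better covered. Unc93b1, the chaperone that carries TLR7 and TLR9 to endosomes, stood at 546 against 239 CPM (2.28-fold, 1.93 to 2.69). Slc15a4, a lysosomal transporter needed for TLR7 and TLR9 responses, was 7.08-fold higher at 94.6 CPM, and Ctsb, a lysosomal protease, 5.76-fold higher at 1095 CPM. Myd88 and Irak1, adaptor and kinase of the pathway, were at 54.1 and 56.8 CPM, within 4-fold. Tlr3, which senses double-stranded RNA in type 1 conventional dendritic cells, had 2 UMIs against 245 CPM (ratio 0.022, 0.00266 to 0.080).

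No interferon transcript was captured in these cells. All 20 genes of type I and type III interferon in the matrix had 0 UMIs in the 111 cells, which allows up to 8.11 CPM for their sum and up to 2.70% of cells with a UMI. They also had 0 UMIs in the 139 cells removed by the excluding genes. Elsewhere in the matrix 1816 UMIs of these genes lay in 414 cells, 1776 of them from Ifnb1. These were 0.321% of the other cells, a share below the limit that 0 of 111 cells allows, so a difference was not detectable with this number of cells.

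The receptor for type I interferon was present. Ifnar1 and Ifnar2, its chains, stood at 370.3 and 316 CPM against 147 and 56.9 CPM, differences of 2.51-fold (2.04 to 3.09) and 5.56-fold (4.26 to 7.25). Ifnar2 was the 1 higher gene among 9 measured genes of interferon receptors and signalling, of which 8 were within 4-fold. That share is near the 8.91% of all measured genes that were higher. Ifngr1, a chain of the receptor for interferon gamma, stood at 67.6 against 224 CPM and was 3.32-fold below.

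Interferon-stimulated genes were mostly within 4-fold of type 1 conventional dendritic cells. Of 19 measured, 2 were higher, 1 was lower and 16 were within 4-fold (median log2 ratio 0.32, against 0.27 for all genes). These counts are near the shares over all measured genes, 8.91% higher and 4.49% lower. Bst2 was 1 of the higher genes, and Oasl2, the other, was 4.43-fold higher at 116 CPM and was under 4-fold once ratios were centred or without library 4 or 11 (log2 ratios of 1.999 and 1.93). Ifi27l2a had the highest level after Bst2, 1757 against 777 CPM, and Isg15, a ubiquitin-like modifier, stood at 146 against 126 CPM. Cxcl9, a T cell attractant induced by interferon gamma, had 1 UMI against 330.0 CPM (ratio 0.00819, 0.000207 to 0.0458) and Ifitm3 stood at 503 against 1075 CPM.

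Homing receptors differed in several places. Of 14 measured genes of chemokine receptors and homing, 7 were higher and 1 was lower than in type 1 conventional dendritic cells (median log2 ratio 1.57). Over all measured genes these shares were 8.91 and 4.49%. Selplg, the ligand of P-selectin, was 5.0-fold higher at 1022 CPM, Cxcr4, the receptor for marrow retention, 5.33-fold at 222 CPM, and S1pr4 had 54.1 CPM against 1 UMI.

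Cxcr3, often used by these cells to enter inflamed tissue, stood at 37.8 against 21.8 CPM, and Ccr7, for migration to lymph nodes, at 40.5 against 72.2 CPM. Ccr7 lay in only 5 of the 111 cells, up to 8 UMIs in 1 of them, and its log2 ratio ranged from -1.99 to 0.08 with 1 library left out. Itgae, the gene of CD103 on type 1 conventional dendritic cells, was the gene that was lower, at 21.6 against 486 CPM.

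Among secreted factors, Ccl4, a chemokine that attracts T cells and myeloid cells, was higher than in all 4 other groups compared. Ccl4 reached 3957 CPM (3757 to 4165) against 658 CPM in type 1 conventional dendritic cells (6.01-fold, 5.58 to 6.48), 314 CPM in mature dendritic cells, 229 CPM in B cells and 856 CPM in all other cells. It was found in 76.6% of the cells, against 60.7% of type 1 conventional dendritic cells and 61.6% of cells with macrophage genes, or 64.8, 32.9 and 31.2% after thinning to 1000 UMIs. The cells had a median of 4.0 UMIs, at least 5 UMIs in 55 cells and 156 UMIs in the highest. Ccl3, a related chemokine, stood at 181 against 20.3 CPM (8.93-fold, 5.96 to 13.5), with 295 CPM in all other cells, and its log2 ratio was 2.36 without library 12 against 3.16 with it. It was found in 14.4% of the cells and in 37.1% of cells with macrophage genes. The level of Ccl4 was thus carried by most cells, and that of Ccl3 by few.

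Chemokines of conventional and mature dendritic cells were low or not captured. Of 8 measured chemokines 3 were higher and 4 were lower, the lower ones being Cxcl9, Ccl17 and Ccl22 (0 UMIs each for the latter pair) and Cxcl16, at 37.8 against 442 CPM. Ccl17, which attracts CCR4-bearing T cells, was at least 51.6-fold lower and Ccl22, its relative, at least 7.38-fold lower. The third higher chemokine, Xcl1, rested on 1 cell of library 8 with 15 of its 16 UMIs, and its log2 ratio was -0.38 without that library.

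Of the interleukin-12 subunits, Il12a (p35) had 26 UMIs in 20 cells, 70.3 CPM (45.9 to 103), against 0 UMIs in type 1 conventional dendritic cells, at least 47.3-fold higher. Il12b (p40) showed the reverse, with 0 UMIs against 63.3 CPM, at least 7.81-fold lower. In mature dendritic cells Il12b was found in 52.0% of the cells and Il12a in 1 cell. Il6 had 0 UMIs, Tnf 7 and Il10 1, while Tgfb1 stood at 203 CPM and Il1b at 384 CPM, 49 UMIs of it in 1 cell.

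Antigen presentation by MHC class II was present at lower levels. Of 11 measured genes, 4 were lower and 7 within 4-fold of type 1 conventional dendritic cells (median log2 ratio -1.52), against 4.49% of all genes lower. H2-Ab1, a class II chain, stood at 2089 against 8635 CPM (4.13-fold lower) and H2-Eb1 at 1459.6 against 6648 CPM (4.55-fold lower). The invariant chain gene Cd74 stood at 5062 against 13717 CPM. Ciita, the master regulator of class II, was 4.03-fold lower at 27 CPM, and H2-Ob, which tunes peptide loading, had 3 UMIs (ratio 0.107, 0.0219 to 0.319). Without library 2 the calls of H2-Ab1 and Ciita ended, at log2 ratios of -1.91 and -1.71, and that of Ciita also ended without library 1, 6, 8, 9, 10 or 12.

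Against mature dendritic cells, in contrast, no class II gene was lower and H2-Ab1 stood at 1026 CPM there. All 9 MHC class I genes were within 4-fold of type 1 conventional dendritic cells (median log2 ratio 0.33). Of 6 measured genes of T cell interaction 1 was higher, 1 was lower and 4 were within 4-fold of type 1 conventional dendritic cells, with Cd40 at 27 against 26.7 CPM. Over all measured genes 8.91% were higher and 4.49% were lower. Cd86 stood at 21.6 against 273 CPM (12.6-fold lower), in 5.41% against 72.7% of the cells, and Cd80 at 10.8 against 37.6 CPM, over 4-fold lower only once ratios were centred. Ido1, Gzmb and Prf1, associated with tolerance and killing, had 0 UMIs, while Nrp1, a semaphorin receptor of these cells, was 5.46-fold higher at 91.9 CPM.

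**Figure D4:**
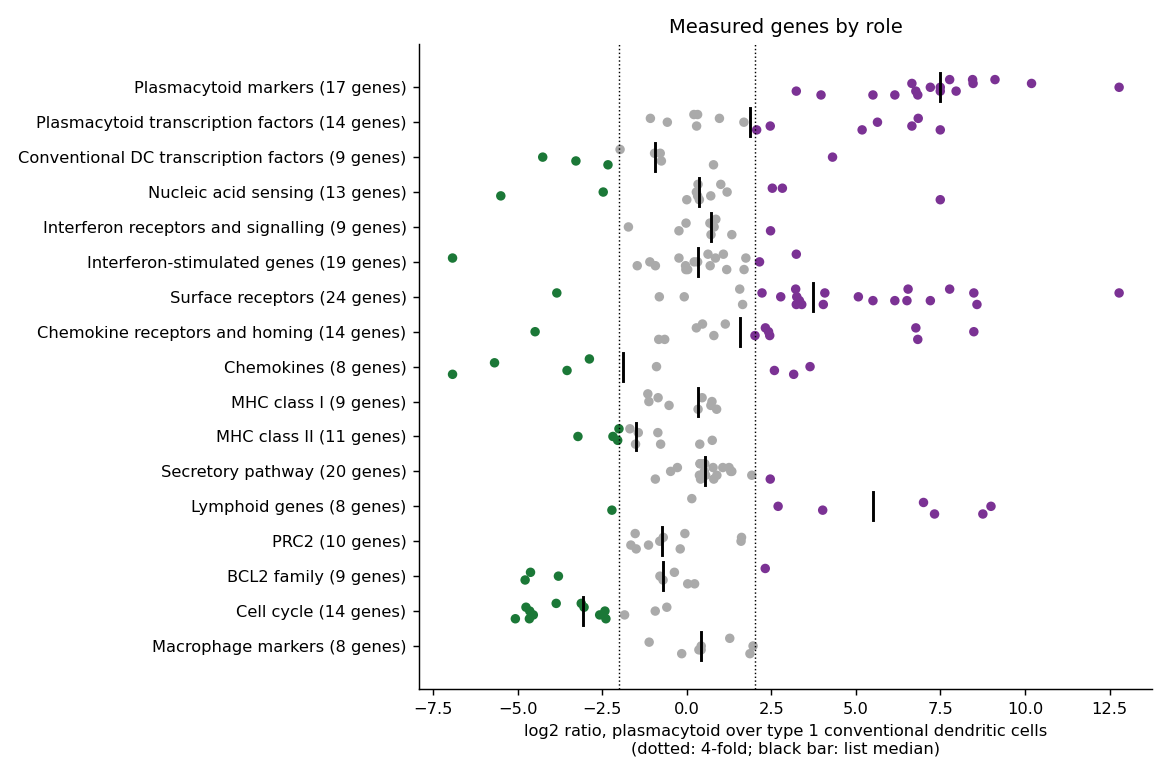
Each point is the log2 ratio of a measured gene between plasmacytoid and type 1 conventional dendritic cells, in 17 lists by role, with a black bar at the median of a list and dotted lines at 4-fold, and sums of 0 UMIs set to 3 UMIs. Plasmacytoid markers (median 7.49), surface receptors (median 3.72) and lymphoid genes (median 5.51) lie to the right, and cell cycle genes (median -3.08) to the left.

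Genes of the secretory machinery were mostly within 4-fold of type 1 conventional dendritic cells. Of 20 measured genes of the secretory pathway, 1 (Xbp1) was at least 4-fold higher than in type 1 conventional dendritic cells and 19 were within 4-fold, against 8.91% of all genes higher (median log2 ratio 0.54, against 0.27 for all genes), whereas 10 were higher than in mature dendritic cells (median 1.99, with 11.2% of all genes higher), or 7 once ratios were centred. Manf, a chaperone of the endoplasmic reticulum, stood at 473 CPM against 84.8 CPM in mature dendritic cells, and Spcs2, of the signal peptidase, at 573 against 81 CPM. Mzb1, a chaperone of antibody assembly in plasma cells, was higher than in type 1 conventional dendritic cells at 224 CPM against 0 UMIs, while Sdc1 and Derl3 of plasma cells had 1 UMI each.

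Transcripts of dividing cells were scarce. Of 14 measured cell cycle genes, 11 were lower than in type 1 conventional dendritic cells, 3 were within 4-fold and 0 were higher (median log2 ratio -3.08). The list summed to 143 CPM (107 to 187), against 1401 CPM in type 1 conventional dendritic cells, 253 CPM in mature dendritic cells and 205 CPM in B cells. Against mature dendritic cells 0 of 2 measured genes were lower (1 once ratios were centred), and against B cells 0 of 3. Low levels were thus shared with these 2 types. Mki67 had 2 UMIs in 2 cells against 137 CPM (ratio 0.0396, 0.00477 to 0.144), and Top2a and Birc5, of mitosis, had 0 UMIs, at least 23.3-fold and 14.6-fold lower. Pcna, a clamp of replication, stood at 59.5 against 114 CPM.

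Among survival genes of the BCL2 family 3 were lower and 1 was higher than in type 1 conventional dendritic cells, against 4.49 and 8.91% of all genes. Of 9 measured members, Bcl2a1a, Bcl2a1b and Bcl2a1d, the gene copies of the anti-apoptotic A1 protein, were lower by 27.6-fold, 13.9-fold and 24.7-fold, and their shared sequence makes the split among them uncertain. Bcl2l11, the gene of the pro-apoptotic BIM, was higher at 141 against 28.2 CPM (4.98-fold, 3.36 to 7.39), in 36 cells, and stood at 102 CPM in mature dendritic cells, 164 CPM in B cells and 142 CPM in all other cells, each within 4-fold. Mcl1, an anti-apoptotic member, was level at 424 against 418 CPM. Bcl2 itself had 5 UMIs.

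Transcripts of the drug target were scarce. Ezh2, the methyltransferase of the Polycomb complex PRC2 that EZH2i blocks, had 11 UMIs in 10 cells, 29.7 CPM (14.8 to 53.2) against 84.1 CPM in type 1 conventional dendritic cells (2.83-fold lower, under the 4-fold limit). All 10 measured PRC2 genes were within 4-fold (median log2 ratio -0.75), among them Suz12 at 40.5 and Jarid2 at 91.9 CPM. Of 6 listed cyclin-dependent kinase inhibitors that PRC2 silences in other cells, Cdkn2a and Cdkn2b had 0 UMIs. The other 4 held 73 UMIs, 197 CPM, in 44 cells. All 3 measured ones were within 4-fold of type 1 conventional dendritic cells.

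Genes listed for other cell types were present to different degrees. The lists of monocytes, T cells, B cells, plasma cells and type 2 conventional dendritic cells summed to 8138, 1208, 887, 803 and 1200.1 CPM, against 1751, 21.3, 54.4, 26.7 and 147 CPM in type 1 conventional dendritic cells. They were found in 111, 85, 96, 70 and 96 of the 111 cells, while neutrophil markers were found in 14. The 12 macrophage markers outside the rule summed to 1414 CPM, against 1128 CPM in type 1 conventional dendritic cells and 42734 CPM in cells with macrophage genes, and ranged from 881.2 to 2946 CPM over the 5 libraries with at least 10 plasmacytoid dendritic cells. Apoe, the highest, stood at 543 CPM and C1qb at 70.3 CPM. Their part in the results was not tested.

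S100a8 and S100a9, genes of neutrophils, stood at 768 and 1014 CPM, but only 6 and 5 cells held them and 1 cell of library 4 held 199 of 284 and 266 of 375 UMIs, next to 5 Siglech, 10 Tcf4 and 6 Ccr9 UMIs. In the 108 cells with at most 5 UMIs of the pair, Ccr1, counted above among the 7 higher homing genes, was no longer higher. The call of Ccr1 also ended without library 4, 5, 8, 9, 10, 11 or 12, at log2 ratios of 1.19 to 1.99. The cell with the most UMIs (11625, library 7) held all 11 Xcr1 UMIs and 14 of 17 Naaa UMIs of the group, both genes of type 1 conventional dendritic cells, next to 14 Siglech and 7 Ccr9 UMIs. It also held 6 of 8 Itgae and 2 of 6 Batf3 UMIs, and without library 7 the log2 ratio of Itgae was -5.59 against -4.49 with it. Whether these barcodes held more than 1 cell was not tested. Of 10 natural killer cell markers 7 were at 0, and of 8 mast cell and basophil markers 6. Ptprc, the gene of CD45 by which the cells were enriched, stood at 1127 CPM in 88.3% of the cells.

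Levels of the main genes were compared across libraries 2, 4, 5, 6 and 7, which held 88 of the 111 cells. Ly6d, Klk1, Iglc3 and Cd8b1 had been taken among genes higher in each of these libraries, so their direction here was set by that choice. Ccr9 stood at 1673, 875, 1954, 1258 and 1789 CPM in these libraries in that order, against 5.82, 20.5, 7.46, 28.8 and 0 CPM in the type 1 conventional dendritic cells of the same libraries. The lowest level in plasmacytoid dendritic cells was far above the highest in type 1 conventional dendritic cells. Klk1 stood at 1724, 1791, 2752, 1565 and 1368 CPM and Irf8 at 2315, 2319.8, 2009, 1841 and 3117 CPM, with no library near 0. Ly6d stood at 4202, 1343, 2725, 2239.8 and 3512 CPM, lowest in library 4.

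Some genes varied more. Cd8b1 stood at 944, 40.7, 550.4, 276 and 592 CPM, so library 4 (2 UMIs) was far below the rest, and Cd4 at 226, 40.7, 110.1, 92 and 105 CPM was also lowest there. Iglc3 stood at 881, 285, 275, 1043 and 1092 CPM, with libraries 4 and 5 low. Dntt, from the same list, was more even at 327, 183, 248, 184 and 302 CPM. Ccl4 stood at 3711, 2259, 2587, 3651 and 4722 CPM, above the type 1 conventional dendritic cells of each library (777, 595, 496, 662 and 343 CPM).

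Ifi27l2a stood at 956, 2625, 2064, 2178 and 1631 CPM in plasmacytoid dendritic cells and at 809, 1827, 869.6, 621 and 554 CPM in type 1 conventional dendritic cells. Library 4 was the highest of both types. Hspa1a stood at 0, 1689, 0, 30.7 and 13.2 CPM against 268, 2278, 67.2, 32.9 and 74.2 CPM, so the heat shock transcripts of library 4 were present in both types. The plasmacytoid dendritic cells of the 7 libraries with fewer cells held 0 UMIs of it. H2-Ab1 stood at 1321, 2706, 1789, 1135 and 2749 CPM against 8623, 7768, 7520.3, 6904 and 8363 CPM, without overlap between the types.

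**Figure D5:**
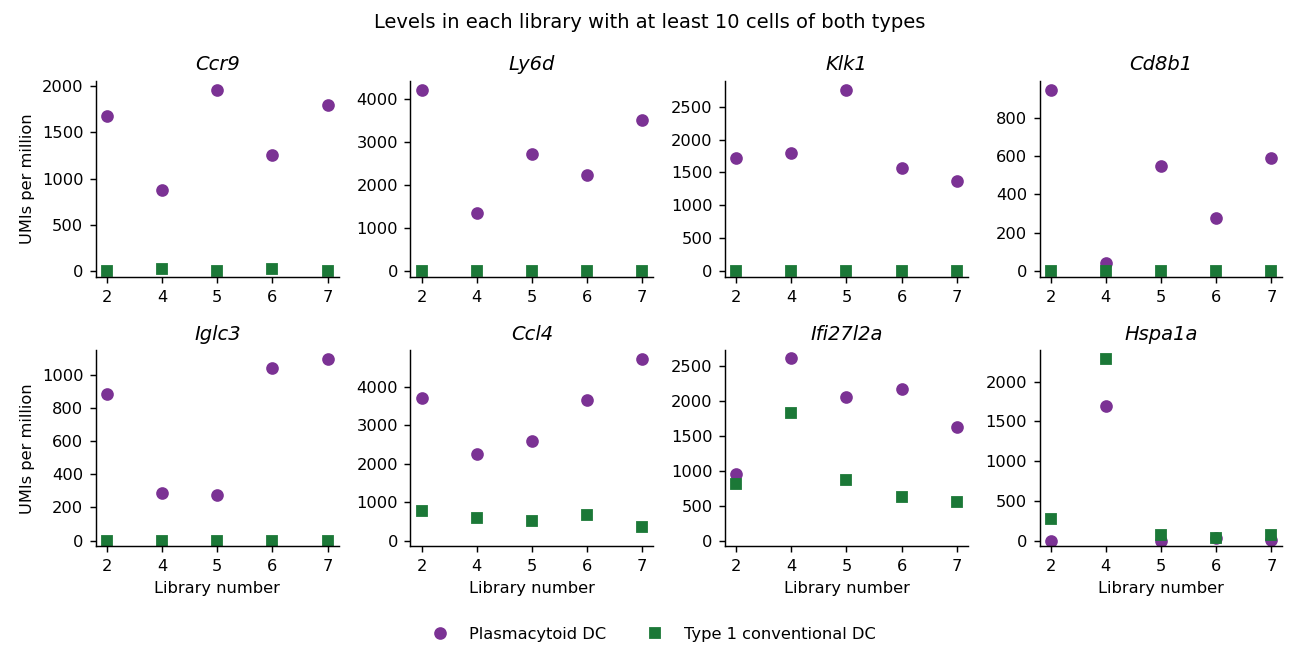
The 8 panels plot the level of a gene, in counts-per-million (CPM) on a linear axis. Circles are plasmacytoid and squares type 1 conventional dendritic cells, in each of the 5 libraries that held 10 or more cells of both types. Ccr9, Ly6d, Klk1, Iglc3 and Ccl4 were higher in plasmacytoid dendritic cells in all 5 libraries, Cd8b1 was near 0 in library 4, and Hspa1a was high in both types in library 4 alone.

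Against mature dendritic cells, the CCR7+ cells that carry antigen to lymph nodes, 607 of 5433 measured genes were higher (11.2%) and 398 were lower (7.33%), with a median log2 ratio of 0.28, or 498 and 472 once ratios were centred. All 17 measured lineage markers were higher, and of 10 measured mature markers outside the comparison's own limits, all 10 were lower. Of 10 measured factors of conventional dendritic cells, 7 were lower, among them Relb, an NF-kB subunit, at 48.7 against 448 CPM, and Id2 at 78.4 against 1188 CPM. Of 11 measured genes of T cell interaction 7 were lower and 2, Lgals9 and Nrp1, were higher (Lgals9 under 4-fold once ratios were centred), with Cd274 at 35.1 against 326 CPM and Cd40 at 27 against 244 CPM. Ccl5 stood at 43.2 against 8019.7 CPM.

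Against B cells 484 of 5430 measured genes were higher (8.91%) and 196 were lower (3.61%), with a median log2 ratio of 0.24, or 374 and 247 once ratios were centred. Of 17 measured lineage markers 15 were higher and the other 2, Ly6d and Spib, were within 4-fold, as were Bcl11a, Zeb2, Ets1, Iglc3, Blnk and Ighm. Of 10 measured B cell markers 9 were lower. Of 15 measured genes of the lymphoid list 4 were higher, 6 were lower and 5 were within 4-fold (median log2 ratio -1.33). Cd79b, of the B cell receptor complex, stood at 29.7 against 630.1 CPM.

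Genes described for precursors and transitional dendritic cells summed to 516 CPM against 668 CPM in type 1 conventional dendritic cells. Of 8 measured, 2 were higher, 3 were lower and 3 within 4-fold of type 1 conventional dendritic cells (median log2 ratio -0.91). Cx3cr1 lay in 6 cells, Cd209a in 8 and both in 1. Axl stood at 18.9 against 74.2 CPM, over 4-fold lower only once ratios were centred, and Kit, a precursor receptor, at 21.6 against 118 CPM. Cd33 was higher at 184 against 3.46 CPM, and Flt3, the receptor of the growth factor on which all dendritic cells depend, was level at 135 against 122 CPM.

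Against all other 128801 cells, most of which held C1qa, 347 of 5669 measured genes were higher (6.12%) and 416 were lower (7.34%), or 310 and 446 once ratios were centred on their median of 0.14. Of 17 measured lineage markers 15 were higher, and Bst2 and Tlr7 were within 4-fold. Of 14 measured plasmacytoid factors 7 were higher, 1 was lower and 6 were within 4-fold. Among the higher ones were Spib at 268 against 0.829 CPM, Bcl11a at 468 against 2.99 CPM and Irf8 at 2441 against 264 CPM. Mycl, a MYC family factor of dendritic cells, stood at 62.2 against 1.38 CPM and Cbfa2t3, a corepressor that acts with E2-2, at 119 against 19.5 CPM. Neither set these cells apart from type 1 conventional dendritic cells. With 1 library left out, log2 ratios to that type ran from 0.006 to 0.44 for Mycl and -0.86 to -0.44 for Cbfa2t3. After thinning to 1000 UMIs, Cbfa2t3 was found in 11.3% of plasmacytoid, 16.2% of type 1 conventional and 27.1% of mature dendritic cells. For Mycl these shares were 5.55, 4.61 and 0.50%. Of 24 measured interferon-stimulated genes 0 were higher and 4 were lower than in all other cells (median log2 ratio -1.19). Of 12 measured macrophage markers 11 were lower. The rule requires 0 UMIs of Adgre1 and C1qa, so this count is a check of the selection. Without the excluding genes 46 genes, instead of 416, were lower than in all other cells.

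Some genes listed for type 2 conventional dendritic cells and for endothelium were carried too. Of 7 measured genes of the type 2 list, 6 were higher than in type 1 conventional dendritic cells, namely Sirpa, Clec10a, Cd7, Irf4, Klrd1 and Cd209a. Sirpa, the receptor for CD47, stood at 97.3 against 5.94 CPM and 282 CPM in all other cells, and Klrd1, the gene of CD94, at 373 against 55.9 CPM. Pecam1, the adhesion molecule CD31, stood at 59.5 against 1.98 CPM and was found in 15.3% of the cells. Of the 11 genes of the tumor and stroma list 7 held 0 UMIs, among them Krt8, Krt18 and Col1a1, and Col3a1 held 1. The list summed to 248.7 CPM, against 31.7 CPM in type 1 conventional dendritic cells. Of its 3 measured genes, Cdh5 and Pecam1 were higher than in that type and Epcam was within 4-fold. All 3 were higher than in all other cells.

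Detection was checked against depth within the group. The 56 cells at or below the median depth (median 1806.5 UMIs) held a median of 9 further markers and the 55 deeper cells (median 4284 UMIs) 12. Ccr9 was found in 80.4 and 94.5% of them, at 1418 and 1480 CPM, and Klk1 in 76.8 and 61.8%, at 2075 and 1604 CPM. Ly6d stood at 3180 and 3612 CPM and Bst2 at 3570 and 3473 CPM. The levels of Ccr9, Ly6d and Bst2 thus differed little between shallow and deep cells, while the share of cells with a UMI was higher in deep cells for Ccr9 and lower for Klk1.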

How the data were processed

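CD45+ cells were enriched on beads and sequenced with the 10x Chromium 3′ chemistry (v3). The authors deposited 1 matrix of UMI counts per gene and barcode for all 12 libraries, raw and not normalized, and the submitters' processing notes name Cell Ranger 2.1.1, Seurat and build mm10, whereas the header of the matrix names software version 3.0.2. Counts of 31053 genes were read in Python 3.11.15 with numpy 2.4.6, scipy 1.17.1, pandas 2.3.3 and matplotlib 3.10.9.

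Counts were summed over the cells of a type, divided by the total and scaled to CPM. Ratios rest on these sums, a sum of 0 UMIs was set to 3 UMIs in a fold, and intervals are exact Poisson, binomial or Clopper-Pearson. A sum weights deep cells and large libraries more. Cells of type 1 conventional dendritic, mature dendritic and B type were required to hold Xcr1 and Clec9a (at least 1 UMI each), Ccr7 and Fscn1 (2 each), or Ms4a1 (1) and Cd79a (2), with 0 Siglech. Cells with macrophage genes (at least 1 Adgre1 and 3 C1qa UMIs, 0 Siglech) gave the background of free RNA. Thinned shares are the expected share of cells with a UMI after drawing 1000 UMIs per cell. No doublet caller was run, and the genes required to be at 0 remove pairs with macrophages, T cells and B cells but not with other types. Genes were named by role from fixed lists, and by the 20 highest and 10 lowest ratios. The members and the lists were chosen with earlier results of these data known. Scripts were tested on simulated data. A few genes that these rules name are not reported here. Annotation was GENCODE M21 on GRCm38, matched for 99.6% of gene identifiers, and promoters were those of RefSeq. Other limits on Siglech, Tcf4, excluding genes, mitochondrial share and expression, and leaving out each library, were tried.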

Additional observations from a re-analysis of the deposited data

Results flagged for a closer look

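Cells that did not count as plasmacytoid dendritic cells also carried Ccr9. The 139 cells that met the Siglech and Tcf4 limits but were removed by a macrophage or T cell gene held 817 CPM of Ccr9, against 12.9 CPM in type 1 conventional dendritic cells, and 83.5% of them held at least 1 UMI of it. They also held 1717 CPM of C1qb and 5891 CPM of Apoe, against 70.3 and 543 CPM in the selected cells.

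The 5 barcodes that met all gene limits but lay outside the limits on genes or mitochondrial share held 2137 CPM of Ccr9, in 3 of the 5 barcodes, with a median of 5 further markers.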

How the results depend on the processing

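The number of plasmacytoid dendritic cells depended most on the excluding genes. Without them 250 cells were found (0.194% of cells), with 135 genes at least 4-fold lower than in type 1 conventional dendritic cells, and 191 higher and 46 lower than in all other cells. A further limit of at most 1 UMI over Apoe, Lyz2, C1qb, C1qc, S100a8, S100a9 and Cd79a left 37 cells (0.0287%) and turned the log2 ratio of S100a9 to -0.30. Allowing up to 2 C1qa UMIs, chosen after seeing the data, gave 0.126%. A Siglech minimum of 1 gave 0.111% and 118 lower genes. A mitochondrial limit of 5% left 51 cells (0.0620%), with 141 genes higher than in B cells.

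A mean CPM of at least 5 gave 917 higher and 432 lower genes against type 1 conventional dendritic cells, 1110 higher against mature dendritic cells, 349 lower against B cells, and 624 higher and 660 lower against all other cells. A mean CPM of at least 100 gave 140 and 55, 184 and 150, 130 and 41, and 105 and 132 in the same order of types, higher first.

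With at most 5 UMIs of S100a8 and S100a9 in a cell, also chosen after seeing the data, 108 cells remained and the log2 ratios to type 1 conventional dendritic cells were -1.86 for S100a8 and -2.85 for S100a9, which the limit itself sets, and -0.017 for Ccr1. The log2 ratio of Xcl1 ranged from -0.38 without library 8 to 6.30 without library 5. Leaving out each library in turn gave 87 to 110 cells (0.0778 to 0.0951%), 468 to 499 higher and 234 to 279 lower genes against type 1 conventional dendritic cells, 590 to 642 and 393 to 422 against mature dendritic cells, 436 to 522 and 187 to 235 against B cells, and 337 to 359 and 394 to 452 against all other cells. Of 125 named or listed genes called against type 1 conventional dendritic cells, 13 calls ended without 1 library, and 48 others moved by over 1.5 times and remained called. Over all alternatives, 5 log2 ratios of named or listed genes called at 4-fold changed sign, 517 ratios moved beyond their interval and 7150 did not, and ratios within 4-fold that crossed 0 are not among the 5. No paired analysis was run because no source names the sample of a library number. With 369975 UMIs in all, genes with few UMIs in both types compared, such as Tlr9, could not be placed, and the causes of these shifts were not tested.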
